A study of Mus musculus with 30 samples.

Results

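The T-box transcription factors were followed across neuronal progenitor cells (NPCs) grown from mouse embryonic stem cells (ESCs) that keep, lack or replace MBD3. MBD3 and its paralog MBD2 are alternative subunits of the NuRD complex, a chromatin remodeler and histone deacetylase. The members were chosen by gene symbol and are 10 of the 25400 genes in the count table: *Eomes*, *Tbr1*, *Tbx1*, *Tbx2*, *Tbx3*, *Tbx4*, *Tbx5*, *Tbx6*, *Tbx15* and *Tbx20*. All 10 members passed the filter on low counts that left 16582 genes for testing. Poly(A) RNA was sequenced in 24 libraries, 3 for each of 8 lines. WT was the parental ESC line, of mixed 129 and C57BL/6 background. *Mbd3* KO was made from it with CRISPR-Cas9 guides against exons of *Mbd3*. The other 6 lines are *Mbd3* KO cells that carry 1 construct each, under the strong and ubiquitous CAG promoter at a fixed genomic site. So all 7 engineered lines share the loss of endogenous MBD3. The constructs were MBD3a (full length), MBD3ΔMBD (no MBD domain), MBD2a (the long MBD2 isoform), MBD2aΔGR (MBD2a without its glycine-arginine stretch), MBD2aR181C (MBD2a with an arginine-to-cysteine change in the methyl-CpG binding domain) and MBD2t (the truncated MBD2 isoform). The sample labels and the paper's text number the changed arginine differently. Libraries of a line came from separate clones, except that the 3 MBD2t libraries repeat a single clone, so their spread is narrower by design. Biotin ChIP-seq samples of the same series were not analysed here.

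All T-box proteins bind DNA through the domain that names the family, and they act as activators or repressors early in development. *Eomes* and *Tbr1* form a subfamily with *Tbx21*. *Eomes* is needed in trophoblast and at the primitive streak, and later marks the intermediate progenitors of the cortex, before *Tbr1* marks the glutamatergic neurons they give rise to. *Tbx2* and *Tbx3* are mainly repressors, and *Tbx3* also belongs to the factors of naive pluripotent ESCs. *Tbx4* and *Tbx5* pattern the hindlimb and the forelimb, and *Tbx5* and *Tbx20* are cardiac regulators. *Tbx1* acts in the pharyngeal region, *Tbx15* in limb and trunk mesenchyme, and *Tbx6* in presomitic mesoderm.

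Because MBD2 reads methylated CpG, the promoters of 3 members are shown with every CpG in capitals. They are *Eomes*, which changed most in *Mbd3* KO, its paralog *Tbr1*, which stayed low, and *Tbx4*. In MBD2a, *Tbx4* was called higher against WT but was not called against *Mbd3* KO. Each run is the 250 bases before the start of transcription, read 5′ to 3′ on the gene's strand, from RefSeq on GRCm38.p6. The windows, which run on for 50 bases past the start, are chr9:118477939-118478238 for *Eomes*, chr2:61804203-61804502 for *Tbr1* and chr11:85896515-85896814 for *Tbx4*, all on the plus strand.
Eomes: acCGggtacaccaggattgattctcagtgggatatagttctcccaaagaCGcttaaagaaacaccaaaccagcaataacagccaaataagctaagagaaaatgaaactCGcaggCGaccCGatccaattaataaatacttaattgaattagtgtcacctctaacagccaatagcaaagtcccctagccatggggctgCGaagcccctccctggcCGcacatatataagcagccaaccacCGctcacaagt
Tbr1: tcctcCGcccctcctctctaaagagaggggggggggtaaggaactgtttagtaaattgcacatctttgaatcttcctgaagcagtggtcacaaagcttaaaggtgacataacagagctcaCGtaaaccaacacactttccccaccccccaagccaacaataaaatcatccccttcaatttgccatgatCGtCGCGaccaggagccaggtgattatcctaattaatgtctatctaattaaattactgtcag
Tbx4: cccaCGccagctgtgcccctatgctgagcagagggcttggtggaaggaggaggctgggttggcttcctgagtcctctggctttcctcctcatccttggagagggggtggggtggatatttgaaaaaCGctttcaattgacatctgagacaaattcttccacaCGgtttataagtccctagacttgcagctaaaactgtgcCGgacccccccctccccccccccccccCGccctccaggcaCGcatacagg
The 300-base windows held 10 CpG in *Eomes*, 7 in *Tbr1* and 8 in *Tbx4*, against a median of 7 in all 32851 windows of this length. The window of *Tbx20* held 26 CpG, that of *Tbx6* held 7, and the 2 windows of *Tbx1* held 26 and 16. So the members that matched lay from the median of all windows upward. A core of the T-box recognition sequence, GGTGTGA or TCACACC on the other strand, was in none of the windows of these 6 members and in 3.98% of all windows. DNA methylation and MBD binding at these promoters were not analysed here.

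Library totals ran from 27993858 to 49392806 counted reads with a median of 36797095, and 3 reads correspond to between 0.0607 and 0.107 CPM, the read count scaled to library size. These limits cover counting error only. *Mbd3* had a mean of 154 CPM in WT and 59.0 in *Mbd3* KO, where poly(A) RNA of the edited gene is still counted, and rose to 186 in MBD3a and 448 in MBD3ΔMBD. *Mbd2* had 45.0 CPM in WT, 66.8 in *Mbd3* KO, 80.2 in MBD2a, 477 in MBD2aΔGR, 278 in MBD2aR181C and 344 in MBD2t. These counts take in endogenous *Mbd2*, so the RNA of a construct alone was not measured. In MBD2a, s13 and s14 held 87.2 and 86.3 CPM of *Mbd2*, while s15 held 67.0, inside the *Mbd3* KO range of 64.2 to 70.9, so the counts do not show the construct in s15. The summed level of 6 genes of neural progenitors (*Pax6*, *Nes*, *Fabp7*, *Neurog2*, *Cd24a* and *Ncam1*) lay between 988 and 1432 CPM in WT and between 251 and 398 CPM in *Mbd3* KO, MBD2a and MBD2t, so the markers of the labelled cell type were low in these 3 lines. Libraries of a line differed. Each was placed on a scale built from the genes called in *Mbd3* KO, members left out, on which the WT libraries average 0% and the *Mbd3* KO libraries 100%. The deposited columns number the libraries, and library s03 of WT sat at 16.2%, s04 of *Mbd3* KO at 112%, s18 of MBD2aΔGR at 43.9% and s20 of MBD2aR181C at 28.8%. A gene was called changed at an edgeR adjusted p under 0.05 and a log2 fold change beyond 1 in either direction. The comparisons with WT share its 3 libraries. In bulk RNA, fewer cells of a type and less RNA per cell cannot be told apart.

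*Eomes*, *Tbx3* and *Tbx15* rose in cells without MBD3. These 3 of the 10 members were called in *Mbd3* KO against WT, all higher, where 33.8% of all genes tested were called and 19.6% were called higher. The libraries of 5 members did not overlap between the lines, against 62.2% of all genes. The median log2 fold change of the members was 0.45, beside -0.028 for all genes tested. By count, the share of members called was near that of all genes. Without library s03 of WT, 5 members were called, with *Tbx4* and *Tbx5* added, beside 34.8% of all genes.

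**Figure D1:**
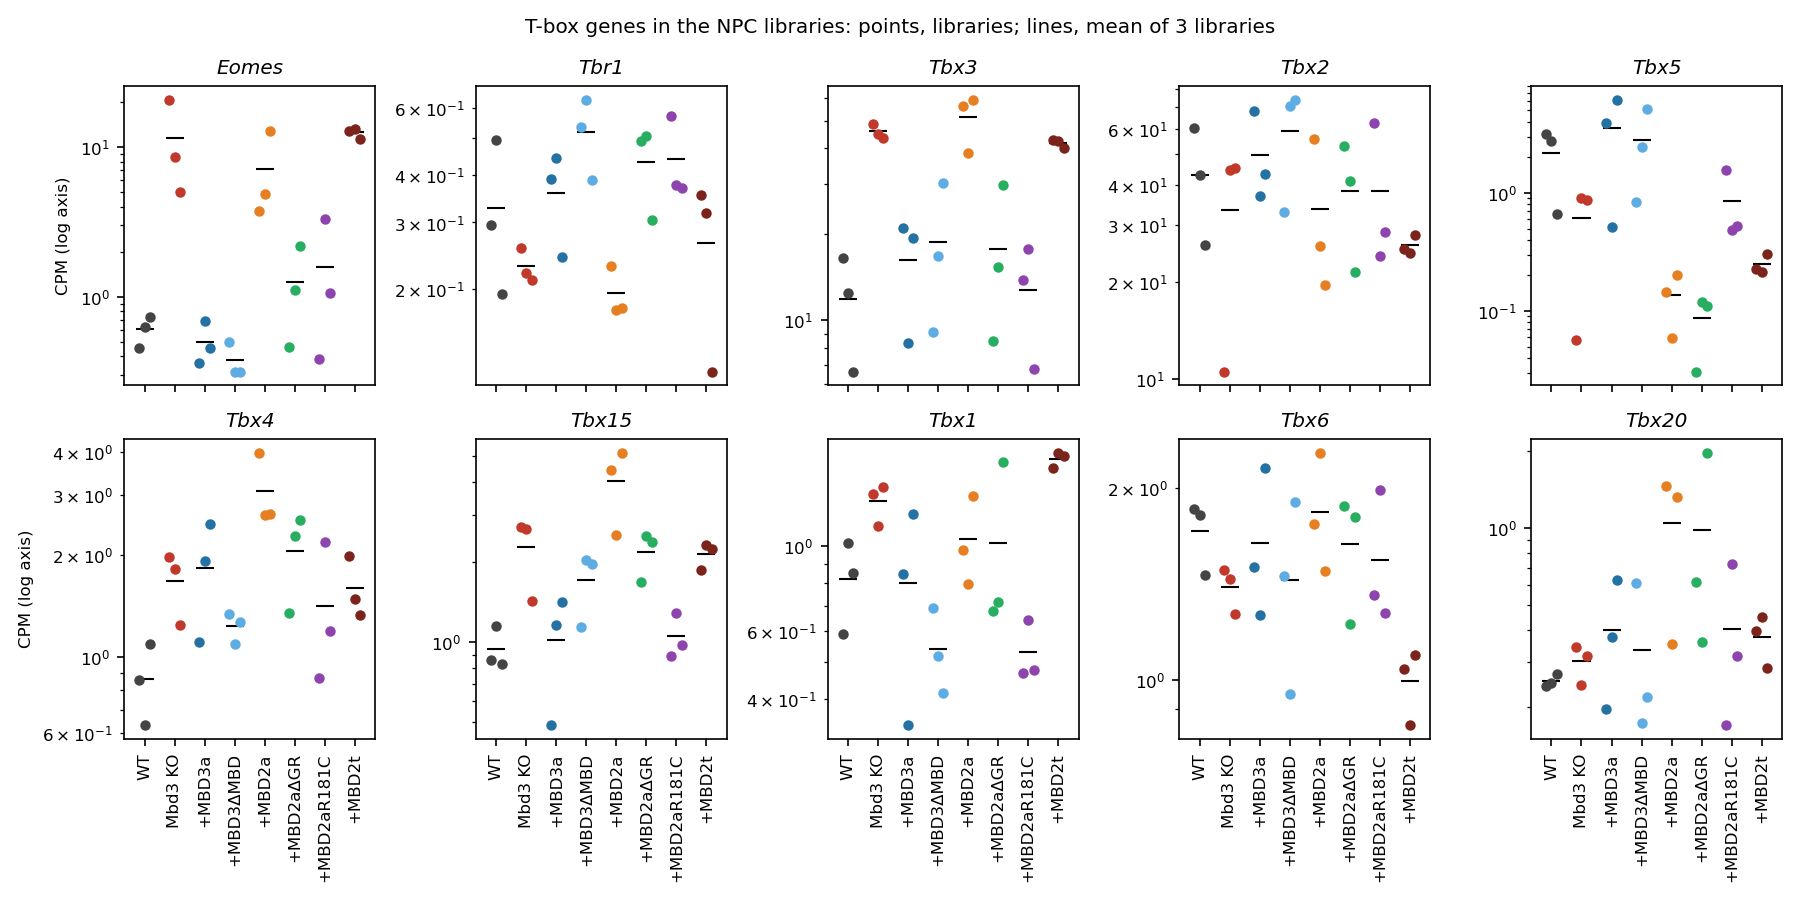
Level of each T-box gene in CPM (log axis) in the 24 libraries, by line; points are libraries and short lines the mean of 3. *Eomes* and *Tbx3* sit high in *Mbd3* KO, MBD2a and MBD2t, while *Tbx5* is lowest in MBD2a and MBD2aΔGR.

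*Eomes* (chr9:118387330-118395250 on mm9, plus strand) had the largest log2 fold change of the members in *Mbd3* KO, MBD2t and MBD3a against *Mbd3* KO. In WT its libraries held 0.456, 0.633 and 0.730 CPM. In *Mbd3* KO they held 20.8, 8.56 and 5.05 CPM. Every *Mbd3* KO library was thus above every WT library, with a wide spread among the *Mbd3* KO clones. The log2 fold change was 4.22 ± 0.69 (adjusted p = 4.64e-05, 18.6-fold). Values after ± are standard errors, with n = 3 libraries per line in every comparison. For MBD2t these are repeats of a single clone, so its errors and p-values do not cover differences between clones. These repeats also enter the estimate of spread that all comparisons share. MBD3a libraries held 0.359, 0.684 and 0.451 CPM, a drop of *Eomes* by 4.51 ± 0.75 on the log2 scale against *Mbd3* KO (adjusted p = 5.83e-05). MBD3ΔMBD libraries held 0.497, 0.316 and 0.316 CPM. Both MBD3 lines overlapped WT, with some libraries of each below all WT libraries. Neither MBD3 line was called against WT, at log2 fold changes of -0.29 ± 1.04 and -0.74 ± 1.07, where the errors exceed the changes.

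The MBD2 constructs fell into 2 kinds for *Eomes*. MBD2a libraries held 3.74, 4.86 and 12.8 CPM and MBD2t libraries 12.9, 13.3 and 11.4 CPM. All of them lay above WT, with log2 fold changes of 3.55 ± 0.70 (adjusted p = 0.000379) and 4.35 ± 0.69 (adjusted p = 3.25e-05), and neither was called against *Mbd3* KO. MBD2aΔGR libraries held 0.461, 1.10 and 2.19 CPM and MBD2aR181C libraries 0.382, 3.30 and 1.06 CPM. Both lines overlapped WT and neither was called against it. In each of these lines *Eomes* followed the order of the libraries on the response scale: s18 and s20 were highest on both. Tested directly against MBD2a, *Eomes* was lower by a log2 fold change of -2.50 ± 0.64 in MBD2aΔGR (adjusted p = 0.00561) and -2.23 ± 0.61 in MBD2aR181C (adjusted p = 0.00562). Without library s15 of MBD2a these values became -1.77 and -1.49, with adjusted p-values of 0.055 and 0.0648, so both calls rest on that library. On the response scale s15 sat at 98.1%, and s13 and s14 at 72.3% and 74.1%. Library s15 is also the MBD2a library in which the *Mbd2* counts do not show the construct. Against WT, *Eomes* in MBD2a was still called without s15, at 2.82 (adjusted p = 0.00362). In a fit of only the 2 lines compared, both also missed the threshold, at adjusted p-values of 0.0554 and 0.0514.

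*Tbr1* (chr2:61640987-61652171), the paralog of *Eomes*, stayed near the limit of detection throughout. The 24 libraries held between 6 and 27 reads of it. WT libraries held 0.295, 0.495 and 0.195 CPM and *Mbd3* KO libraries 0.257, 0.221 and 0.212 CPM, which overlap (log2 fold change -0.49 ± 0.41, adjusted p = 0.314). MBD2a was lowest, with 0.230, 0.177 and 0.178 CPM. Against MBD2a, *Tbr1* was called higher in MBD2aΔGR (1.13 ± 0.42, adjusted p = 0.0432) and MBD2aR181C (1.19 ± 0.40, adjusted p = 0.0200), with no overlap of libraries. The first of these calls was lost under 9 of 12 alternatives, among them leaving out s13, s14, s15, s16 or s17 (adjusted p 0.0635 to 0.150), DESeq2 (0.084) and RLE scaling (0.0522). The second was lost under 5 of 13, among them without s14, s15 or s19 (0.0630 to 0.136).

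*Tbx3* rose with the loss of MBD3 to about the same level in all 3 clones. WT libraries held 16.5, 12.5 and 6.62 CPM. *Mbd3* KO libraries held 48.9, 45.0 and 43.7 CPM, all above WT and within a narrow band. The log2 fold change was 1.95 ± 0.47 (adjusted p = 0.00145, 3.87-fold). MBD2a (56.4, 38.6 and 59.3 CPM) and MBD2t (42.7, 42.7 and 40.2 CPM) were as high, with log2 fold changes against WT of 2.12 ± 0.47 (adjusted p = 0.000945) and 1.82 ± 0.47 (adjusted p = 0.00244). The other 4 construct lines overlapped WT: MBD3a (21.1, 8.31 and 19.4 CPM), MBD3ΔMBD (9.10, 16.8 and 30.4 CPM), MBD2aΔGR (8.48, 15.3 and 29.7 CPM) and MBD2aR181C (13.9, 17.8 and 6.75 CPM). None of these 4 was called against WT for *Tbx3*. Direct tests put *Tbx3* lower in MBD3a than in *Mbd3* KO (log2 fold change -1.49 ± 0.46, adjusted p = 0.00966) and lower in MBD2aΔGR (-1.52 ± 0.46, adjusted p = 0.0149) and MBD2aR181C (-2.00 ± 0.47, adjusted p = 0.00166) than in MBD2a. Without library s08, the lowest of MBD3a, the first value was -1.19 with an adjusted p of 0.0516. The MBD2aΔGR call was lost without s16 (adjusted p = 0.0728) and in the fit of the 2 lines alone (0.0632). On mm9, *Tbx3* overlaps a transcript of the opposite strand by 115 of its 5365 exon bases. The annotation names that gene *Gm2301* and the count table *AW549542*, under the same identifier. *AW549542* held 0 to 35 reads per library, while *Tbx3* held at least 238.

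*Tbx2*, the closest paralog of *Tbx3*, did not follow it. Its levels were 60.5, 43.0 and 26.1 CPM in WT and 10.5, 44.5 and 45.2 CPM in *Mbd3* KO. A single *Mbd3* KO library, s04, was low, and the rest lay inside the range of WT. The log2 fold change was -0.37 ± 0.51 (adjusted p = 0.554) and turned to 0.053 without s04. *Tbx2* was called in no comparison, and its line means ran from 26.0 CPM in MBD2t to 59.1 CPM in MBD3ΔMBD.

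*Tbx5* was the member called lower against WT, in MBD2a, MBD2t and MBD2aΔGR. WT libraries held 3.14, 2.78 and 0.657 CPM. *Mbd3* KO libraries held 0.0572, 0.907 and 0.873 CPM, the first of them 2 reads in s04. The lowest WT library, s03, lay below 2 of the *Mbd3* KO libraries, and the log2 fold change of -1.76 ± 0.77 was not called (adjusted p = 0.0525). Without s03 it was called, at -2.21 (adjusted p = 0.0161). MBD2a libraries held 0.144, 0.0589 and 0.204 CPM, MBD2t libraries 0.229, 0.212 and 0.303 CPM and MBD2aΔGR libraries 0.0307, 0.119 and 0.111 CPM. All 9 of these lay below all WT libraries. The calls against WT were -3.93 ± 1.05 for MBD2a (adjusted p = 0.00349), -3.09 ± 0.88 for MBD2t (adjusted p = 0.00504) and -4.57 ± 1.16 for MBD2aΔGR (adjusted p = 0.0235).

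In MBD2aΔGR the *Tbx5* value rests on very few reads. The libraries held 1, 4 and 4 reads, 9 in all, against 245 in WT. This is a ratio to WT of 0.0412 (95% interval 0.0186 to 0.0795, counting error only). MBD2a held 15 reads, a ratio of 0.0651 (0.0359 to 0.109), and *Mbd3* KO 76 reads, a ratio of 0.302 (0.230 to 0.392). MBD2aR181C, which is MBD2a with the point change, held 111 reads, a ratio of 0.425 (0.337 to 0.534). Its libraries held 1.55, 0.483 and 0.529 CPM, with s20 and s21 below all WT libraries. The line overlapped WT and was not called (-1.28 ± 0.72, adjusted p = 0.999). The difference between MBD2aΔGR and MBD2aR181C, tested after the values were seen, was -3.29 ± 1.34 with no overlap of libraries, and it was not called (adjusted p = 0.178). The *Tbx5* call in MBD2aΔGR was lost without s01, s02, s17 or s18 (adjusted p 0.0503 to 0.144) and in the fit of the 2 lines alone (0.103). *Tbx5* was higher in MBD3a (3.95, 0.513 and 6.18 CPM) than in *Mbd3* KO by 2.47 ± 0.74 (adjusted p = 0.00756), although library s08 of MBD3a lay inside the *Mbd3* KO range. This call was lost without s09 (adjusted p = 0.0693) and in the fit of the 2 lines alone (0.0548).

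*Tbx4* was highest in MBD2a. WT libraries held 0.859, 0.633 and 1.10 CPM and *Mbd3* KO libraries 1.97, 1.81 and 1.24 CPM. All 3 *Mbd3* KO libraries were higher, and the log2 fold change of 0.95 ± 0.37 passed the p threshold (adjusted p = 0.0349) but not that of size. With DESeq2 it was 1.01 and with RLE scaling 1.00, both called, as it was with library size only (1.09) and without s03 (1.16) or s06 (1.12). MBD2a libraries held 3.97, 2.62 and 2.62 CPM, above every WT and *Mbd3* KO library. Against WT the log2 fold change was 1.82 ± 0.35 (adjusted p = 0.000296), and against *Mbd3* KO it was 0.87 ± 0.32, not called (adjusted p = 0.0989). MBD2aΔGR (1.35, 2.26 and 2.52 CPM) was called higher than WT by 1.24 ± 0.37 (adjusted p = 0.0444), a call lost without s01, s02, s17 or s18 (adjusted p 0.110 to 0.262), with no filter on low counts (0.0532) and in the fit of the 2 lines alone (0.326). MBD2aR181C (0.871, 2.17 and 1.19 CPM) overlapped WT and was called lower than MBD2a by a log2 fold change of -1.14 ± 0.32 (adjusted p = 0.00700). Without s13 or s19 this difference was -0.92 or -0.90, short of the size threshold. MBD3a, with 1.11, 1.91 and 2.46 CPM, lay above WT for *Tbx4* without overlap and was not called, at 1.06 ± 0.38 (unadjusted p = 0.0118, adjusted p = 1).

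*Tbx15* (chr3:99044304-99158182, plus strand) was called higher than in WT in 4 lines. WT libraries held 0.859, 1.16 and 0.828 CPM and *Mbd3* KO libraries 2.72, 2.68 and 1.43 CPM. There was no overlap, and the log2 fold change was 1.27 ± 0.35 (adjusted p = 0.00446). MBD2a held 4.43, 2.53 and 5.15 CPM (2.10 ± 0.34, adjusted p = 5.16e-05), MBD2t 1.87, 2.33 and 2.24 CPM (1.18 ± 0.35, adjusted p = 0.00702) and MBD2aΔGR 1.69, 2.50 and 2.38 CPM (1.22 ± 0.36, adjusted p = 0.0428). The libraries of these 4 lines were all above WT. The MBD2aΔGR call was lost without s01, s02, s03, s17 or s18 (adjusted p 0.0766 to 0.207), with no filter (0.0540) and in the fit of the 2 lines alone (0.266). MBD2aR181C held 0.892, 1.29 and 0.979 CPM, which overlap WT. It was lower than MBD2a by a log2 fold change of -1.95 ± 0.33 (adjusted p = 0.000105). MBD3a (0.489, 1.16 and 1.42 CPM) was lower than *Mbd3* KO by a log2 fold change of -1.16 ± 0.36 (adjusted p = 0.0107), a call that was lost without s07 (-0.83, adjusted p = 0.0697).

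*Tbx20* (chr9:24527648-24578746, minus strand) was higher than in WT in every library of MBD2a, MBD2aΔGR and MBD2t. WT libraries held 0.242, 0.248 and 0.268 CPM, which is 9 to 11 reads each, and *Mbd3* KO libraries 0.343, 0.243 and 0.317 CPM, which overlap (0.23 ± 0.82). MBD2a held 1.47, 0.354 and 1.33 CPM and was called (2.05 ± 0.65, adjusted p = 0.0125). MBD2aΔGR held 0.614, 0.357 and 1.97 CPM and was not (1.97 ± 0.67, adjusted p = 0.0713). Nor was MBD2t called, with 0.395, 0.451 and 0.283 CPM (0.55 ± 0.77, adjusted p = 0.558). The 3 highest of all 24 libraries were s18, s13 and s15. Without s13 the MBD2a call was lost (1.77, adjusted p = 0.0522).

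The same 3 libraries held the most RNA of endoderm genes. The summed level of 10 endoderm genes was 58.8 to 73.3 CPM in WT, while it was 174 CPM in s13, 417 in s15 and 1272 in s18. It was 64.2 CPM in s14, 125 in s16 and 95.3 in s17, where *Tbx20* was lower. In MBD2t it was 75.6 to 81.4 CPM. Of these 10 genes, 9 were called higher and none lower in MBD2aΔGR against WT, beside 2.69% of all genes called higher. In MBD2a, 6 were called higher and none lower, beside 16.9%. In MBD2aΔGR, 3 of the 10 had no overlap with WT, beside 18.8% of all genes, and in MBD2a 4, beside 56%. The summed level of 15 cardiac genes was 59.1 to 70.9 CPM in WT, 129 in s13, 144 in s15 and 476 in s18. All 10 endoderm genes were detected in every library, while *Nppa* and *Bmp10* of the cardiac list were at 0 in all WT libraries. The part of these markers in the *Tbx20* result was not tested.

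Of *Tbx1* (chr16:18581806-18588113, minus strand) and *Tbx6* (chr7:133924997-133929074, plus strand), only *Tbx1* was called, in MBD2t against WT. *Tbx1* held 0.590, 1.02 and 0.852 CPM in WT and 1.37, 1.13 and 1.43 CPM in *Mbd3* KO, higher without overlap but not called (0.67 ± 0.34, adjusted p = 0.102). It was called in MBD2t, with 1.60, 1.75 and 1.72 CPM (1.04 ± 0.33, adjusted p = 0.0105), and lost there without s01 (0.85, adjusted p = 0.0536). Against MBD2a, *Tbx1* was lower in MBD2aR181C without overlap but short of the size threshold (-0.996 ± 0.386, adjusted p = 0.0380). *Tbx6* held 1.85, 1.82 and 1.46 CPM in WT and 1.49, 1.44 and 1.27 CPM in *Mbd3* KO (-0.29 ± 0.26, adjusted p = 0.366). MBD2t was lower than WT in all libraries, at 1.04, 0.848 and 1.09 CPM, but short of the size threshold (-0.77 ± 0.27, adjusted p = 0.0211). *Tbx6* was called in no comparison.

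**Figure D2:**
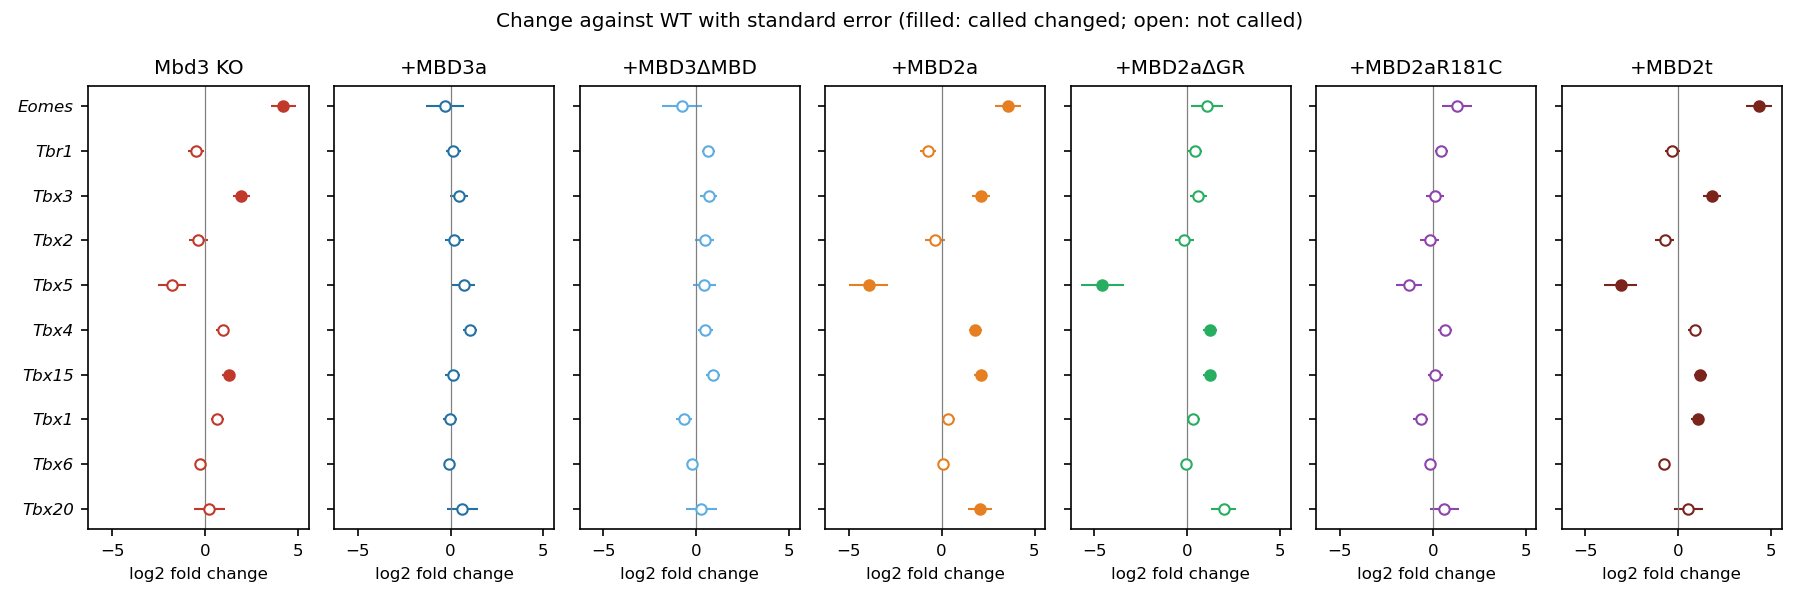
Log2 fold change of each member against WT with its standard error (3 libraries per line), one panel for each of 7 lines; filled points were called and open points were not. *Eomes* reaches 4.22 in *Mbd3* KO and 4.35 in MBD2t, and *Tbx5* -4.57 in MBD2aΔGR.

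Taking the constructs one by one, MBD2a had the most members called against WT: 6 of 10 beside 30.6% of all genes. Of these, 5 were higher, beside 16.9%, and *Tbx5* was lower, beside 13.7%. The same 6 members had no overlap with WT, beside 56% of all genes. In MBD2t, 5 members were called beside 33.4% of all genes, 4 higher beside 18.2% and *Tbx5* lower beside 15.1%, and 8 did not overlap beside 69.2%. In MBD2aΔGR, 3 members were called beside 5.16%, with *Tbx4* and *Tbx15* higher beside 2.69% and *Tbx5* lower beside 2.47%, and 4 did not overlap beside 18.8%. This count of 3 became 0 without s01, s02 or s18, where the share of all genes called also dropped, to 1.08%, 1.5% and 0.722%, and 0 in a fit of only those 2 lines, beside 0.0848%. It was 1 without s17, beside 4.98%, and 1 with no filter on low counts, beside 3.48%. Against *Mbd3* KO, a comparison added after the values were seen, MBD2aΔGR had *Tbx3* (-1.36 ± 0.46, adjusted p = 0.0200) and *Eomes* (-3.16 ± 0.63, adjusted p = 0.000481) lower and *Tbx20* higher (1.74 ± 0.64, adjusted p = 0.0327), beside 25.2% of all genes (15.3% lower and 9.86% higher), and 4 members did not overlap beside 50.2%. The *Tbx20* call was lost without s04, s05 or s06 (adjusted p 0.0589 to 0.105) and in the fit of the 2 lines alone (0.120), and without s18 the log2 fold change was 0.70 (0.413). That of *Tbx3* was lost without s16 (0.0867) or s17 (0.0572).

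In MBD3a no member was called against WT by edgeR or DESeq2, where 0% of all genes were called by edgeR. *Tbx4* alone had no overlap, beside 5.18% of all genes, and it alone had an unadjusted p under 0.05, beside 1.77%. In MBD3ΔMBD no member was called by either tool, beside 0.0181% of all genes, all 10 overlapped WT, beside 11.7% of genes that did not, and *Tbx15* (0.89 ± 0.37) had an unadjusted p under 0.05, beside 7.16%. In MBD2aR181C no member was called by either tool, beside 0.0181%, all 10 overlapped WT, beside 6.56% of genes that did not, and none had an unadjusted p under 0.05, beside 3.95%. A count of 0 does not show that the levels are those of WT: in the 3 lines the standard errors of the log2 fold changes ran from 0.26 for *Tbx6* to 1.07 for *Eomes*.

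The direct tests between lines were read the same way. MBD3a had 4 members called against *Mbd3* KO beside 32.4% of all genes, with *Eomes*, *Tbx3* and *Tbx15* lower beside 18.9% and *Tbx5* higher beside 13.5%, and 3 did not overlap beside 67.4%. MBD2aR181C had 5 called against MBD2a beside 27.3%, with *Eomes*, *Tbx3*, *Tbx4* and *Tbx15* lower beside 15.1% and *Tbr1* higher beside 12.2%, and 7 did not overlap beside 56.7%. This count of 5 became 3 without s15 or without s19, beside 22% and 21%. MBD2aΔGR had 3 called against MBD2a beside 18.6%, with *Eomes* and *Tbx3* lower beside 10.6% and *Tbr1* higher beside 8.02%, and 5 did not overlap beside 40.6%. This count of 3 became 1 without s15 or without s16, beside 13.6% and 13.2%, and 0 in a fit of the 2 lines alone, beside 11%. No member was called in MBD2a against *Mbd3* KO by edgeR or DESeq2, beside 5.25% of all genes, and *Tbx4* and *Tbx20* did not overlap, beside 27.1%. Without s14, 2 members were called, beside 3.13%. *Tbx4*, *Tbx15* and *Tbx20*, all higher, had an unadjusted p under 0.05, beside 22.6%. In MBD2t against *Mbd3* KO neither tool called a member, beside 0.0241% of all genes, 3 members did not overlap beside 19%, and none had an unadjusted p under 0.05, beside 3.44%. In MBD3ΔMBD against MBD3a neither tool called a member, beside 0%, all 10 overlapped, beside 13.2% of genes that did not, and none had an unadjusted p under 0.05, beside 3.92%. Between MBD2aΔGR and MBD2aR181C, added after the values were seen, edgeR called none, beside 2.35% of all genes, and 3 did not overlap beside 12%. An unadjusted p under 0.05 was found for *Tbx1*, *Tbx5*, *Tbx15* and *Tbx20*, beside 19.1% of all genes. DESeq2 called 2 members, beside 4.52%, and edgeR called 1 without s16, beside 8.27%.

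**Figure D3:**
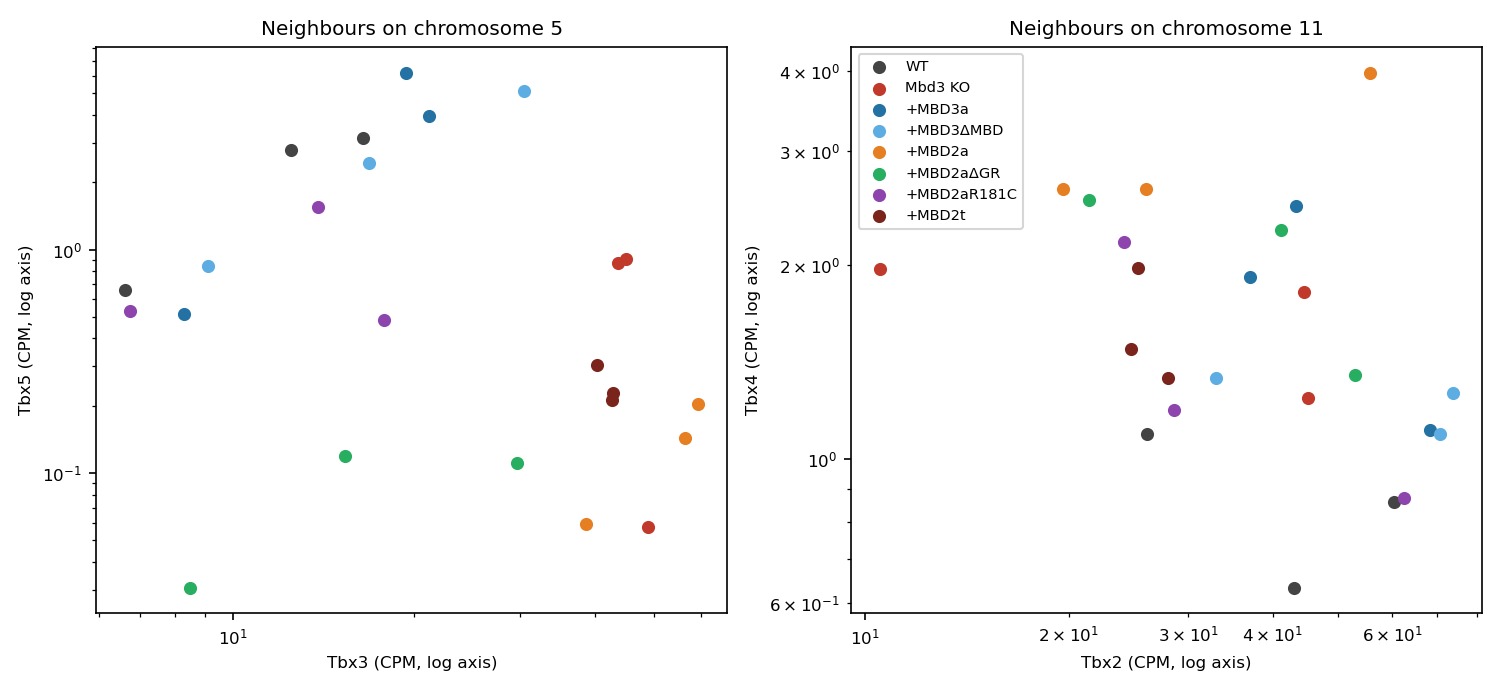
Levels in CPM (both axes log) of the neighbours *Tbx3* and *Tbx5* (left) and *Tbx2* and *Tbx4* (right); each point is 1 of 24 libraries, colored by line. MBD2a and MBD2t libraries sit at high *Tbx3* and low *Tbx5*, and MBD2aΔGR libraries at low *Tbx5* with *Tbx3* between 8.48 and 29.7 CPM.

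Of the members, 4 are neighbours in pairs, and in MBD2a the neighbours did not change alike. On mm9, *Tbx3* (chr5:120120678-120134733) and *Tbx5* (chr5:120284672-120335227) lie 149.938 kb apart on the plus strand with 1 gene of the table between them. Against WT, *Tbx3* was higher in MBD2a by a log2 fold change of 2.12 while *Tbx5* was lower by 3.93. *Tbx2* (chr11:85646053-85655450) and *Tbx4* (chr11:85699924-85729599) lie 44.473 kb apart with no gene of the table between them. Here *Tbx4* was called higher in MBD2a than in WT and *Tbx2* was not called in any line. Against the other libraries of its line, each of the 24 libraries deviated by -0.048 to 0.079 on the log2 scale over the members' chromosomes. A shift shared by all libraries of a line does not appear in this measure, so it does not cover changes against WT.

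**Figure D4:**
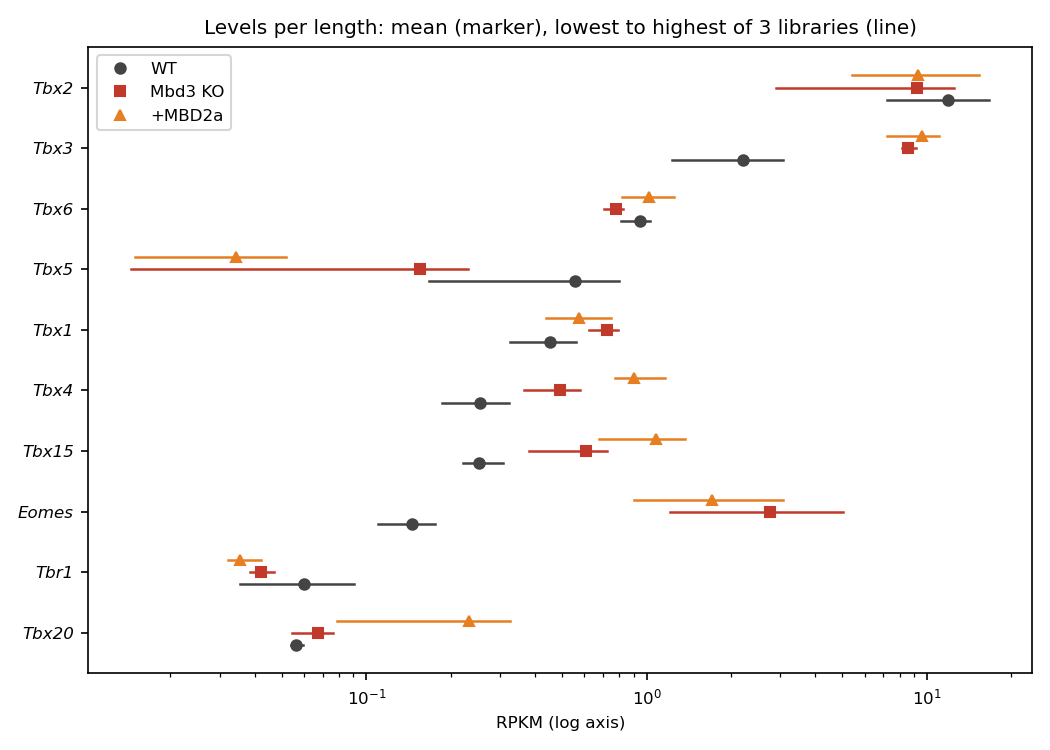
Level per length (RPKM, log axis) of the members in WT, *Mbd3* KO and MBD2a; markers are means and lines run from the lowest to the highest of 3 libraries. *Tbx2* leads in WT, and *Tbx3* comes level with it in *Mbd3* KO and MBD2a.

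Levels of different genes were compared per length, as RPKM over the exons of the annotation. In WT, *Tbx2* stood first with a mean of 11.9 RPKM, followed by *Tbx3* with 2.21 and *Tbx6* with 0.948. *Tbx5* (0.556), *Tbx1* (0.453), *Tbx4* (0.254), *Tbx15* (0.253) and *Eomes* (0.146) came next, and *Tbr1* (0.0599) and *Tbx20* (0.0561) were last. The ranges of *Tbx5* and *Tbx1*, of *Tbx4* and *Tbx15*, and of *Tbr1* and *Tbx20* overlapped over the 3 libraries, so these neighbours in the order are not set apart, while the other neighbours did not overlap. In *Mbd3* KO the order opened with *Tbx2* (9.21), *Tbx3* (8.55) and *Eomes* (2.76), the first pair overlapping, and *Tbx5* was at 0.155. In MBD2a, *Tbx3* (9.59) and *Tbx2* (9.31) came first and *Tbr1* (0.0356) and *Tbx5* (0.0344) last, each pair overlapping.

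**Figure D5:**
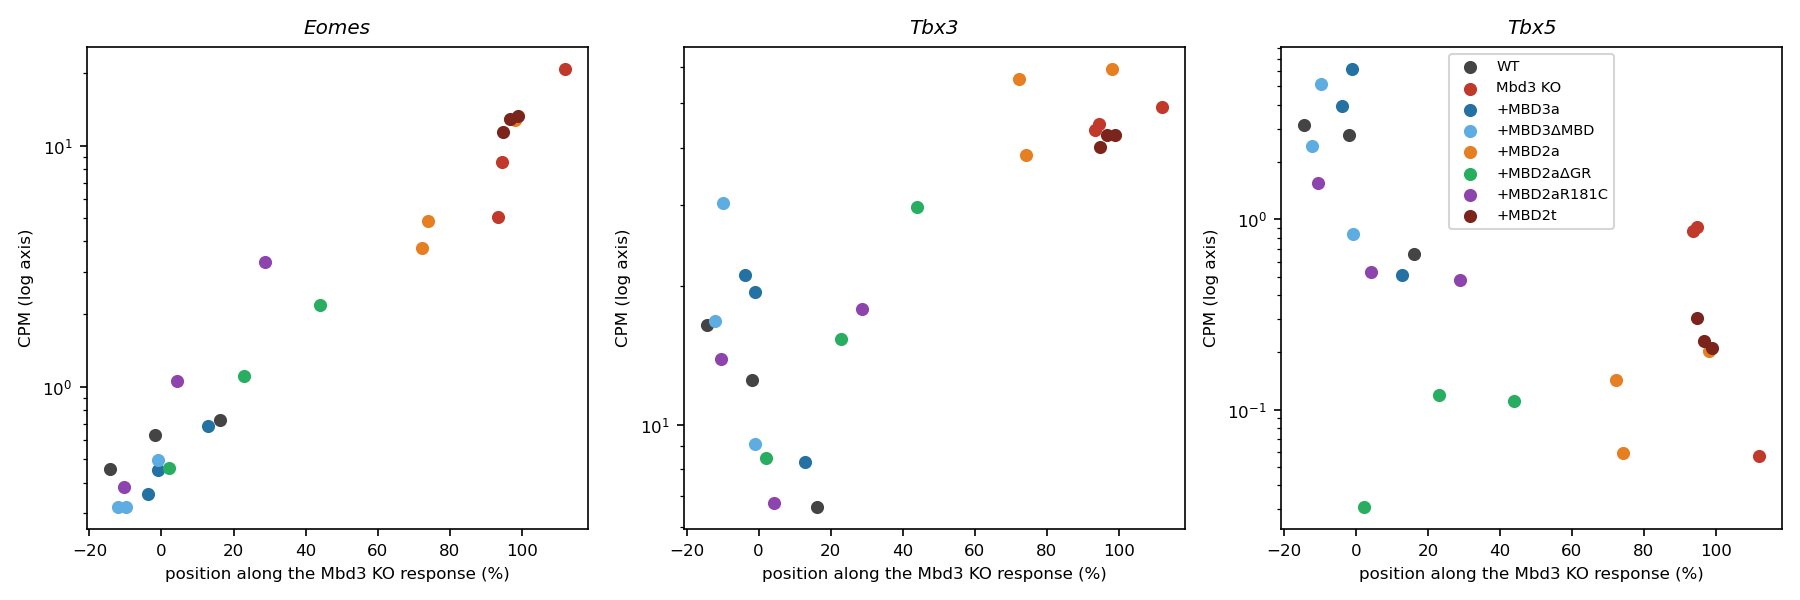
Levels in CPM (log axis) of *Eomes*, *Tbx3* and *Tbx5* in 24 libraries against the position of the library along the *Mbd3* KO response in percent (0, mean of WT; 100, mean of *Mbd3* KO; the members were left out of it). *Eomes* climbs along the axis, *Tbx3* is high from about the MBD2a libraries on, and MBD2aΔGR libraries are low in *Tbx5* from position 2.16% to 43.9%.

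Some members varied more between libraries of a line than genes of like level. The within-line SD of log2 CPM was 1.26 for *Tbx5* beside a median of 0.63 for genes of like level, 0.86 for *Eomes* beside 0.49, 0.71 for *Tbx2* beside 0.19 and 0.64 for *Tbx3* beside 0.21. For *Tbx6* it was 0.32 beside 0.52. The range of line means, on the same scale, was 4.99 for *Eomes* and 4.50 for *Tbx5*, and 0.85 for *Tbx6*. *Eomes* and *Tbx5* therefore differed most both between lines and between libraries of a line.

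The genes with the most similar profile over the 24 libraries were found for *Eomes* and *Tbx3*, by the root mean square distance of log2 CPM centred per gene. They were *Rinl* (0.44), *Ifi35* (0.47) and *Parp14* (0.50) for *Eomes*, and *Lmx1b* (0.42), *Arhgap23* (0.43) and *Eva1b* (0.43) for *Tbx3*. No T-box gene was among these 6.

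Of 7 further T-box genes, 4 passed the filter, and 3 were called higher in *Mbd3* KO, beside 19.6% of all genes. *T*, the primitive streak factor Brachyury, rose by 1.67 ± 0.54 (adjusted p = 0.0122), *Tbx18* by 2.56 ± 0.71 (adjusted p = 0.00442) and *Tbx21*, of the *Eomes* subfamily, by 2.14 ± 0.39 (adjusted p = 0.000113). *Mga* was not called. Only *Tbx21* had no overlap between the lines, beside 62.2% of all genes without overlap. *T* held 3 reads in s04 against 31 and 46 in s05 and s06, and *Tbx18* held 44 against 248 and 227. So s04, the *Mbd3* KO library with the most *Eomes*, had the least *T*, *Tbx18*, *Tbx2* and *Tbx5* of its line.

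The programs in which these factors act moved unequally in *Mbd3* KO, where 19.6% of all genes tested were called higher and 14.2% lower. Of 15 trophoblast genes, where *Eomes* acts early, 14 were called higher and none lower, with *Esx1* at 5.29 ± 0.55 (adjusted p = 4.67e-07) and *Krt7*, a keratin, at 4.42 ± 0.69 (adjusted p = 2.77e-05). Their summed level was 337 to 509 CPM in WT, 2521 to 3225 in *Mbd3* KO, 863 to 2913 in MBD2a and 2225 to 2417 in MBD2t, the 3 lines with high *Eomes*, and 364 to 882 in MBD2aΔGR. No trophoblast gene was at 0 in all libraries of a line. The part of these markers in the *Eomes* result was not tested. Of 15 naive pluripotency genes, a program to which *Tbx3* belongs, 13 were called higher and 1 lower, with *Tfcp2l1* at 3.19 ± 0.57 (adjusted p = 0.000106). The medians of these 2 lists were 3.27 and 3.04, beside -0.028 for all genes tested.

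Glutamatergic neuron genes, the setting of *Eomes* and *Tbr1* in the cortex, went the other way. Of 20 tested, 13 were called lower and 1 higher, beside 14.2% and 19.6% of all genes, with a median of -3.34. *Neurog2* (-6.91 ± 0.56, adjusted p = 3.53e-08) and *Neurod4* (-7.56 ± 0.64, adjusted p = 5.36e-08), proneural factors, led the list. *Eomes* thus rose in a line in which the factors that accompany it in the cortex fell. The summed level of the 22 genes of this list was 1321 to 2625 CPM in WT and 131 to 254 CPM in *Mbd3* KO. There *Neurod6* and *Slc17a6* were at 0. *Neurod6* was also at 0 in all libraries of MBD2a, MBD2t and MBD2aΔGR, the last with a sum of 874 to 1940 CPM. As few as 19 of the 22 genes were detected in a WT library, so some genes of this list were at 0 in WT libraries too. None was at 0 in all WT libraries.

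Mesoderm and cardiac genes were mixed. The counts that follow stand beside 19.6% of all genes called higher and 14.2% called lower. Of 23 primitive streak and mesoderm genes tested, 7 were called higher and 4 lower (median 0.49), with *Hand1* (5.28 ± 0.80, adjusted p = 1.96e-05) and *Foxf1* (4.38 ± 0.56, adjusted p = 3.74e-06) highest and *Wnt3* (-3.92 ± 0.43, adjusted p = 8.44e-07) lowest. Of 13 cardiac genes, 4 were higher and 2 lower (median 0.37). Of 19 genes of BMP, Nodal, WNT, SHH and retinoic acid signalling that act upstream of T-box genes, 5 were higher and 2 lower (median 0.12), led by *Aldh1a2*, which makes retinoic acid (3.13 ± 0.82, adjusted p = 0.00295, libraries overlapping), and *Gli1*, a SHH target (1.82 ± 0.24, adjusted p = 5.09e-06), which overlaps another gene on the opposite strand. Of 10 endoderm genes, 2 were higher, near the share of all genes, and none lower (median 1.40).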

How the data were processed

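Poly(A) RNA of 24 NPC libraries was analysed. The authors trimmed reads with Trim Galore, aligned them with STAR to NCBIM37 (mm9) and took gene counts over GENCODE genes from QuasR, whose strand setting is not given in the sources used here. The deposited values are these whole-number counts, not normalized. Columns were assigned to lines by name and carry no replicate number. The column name of the point mutant gives yet another residue number, and it was taken as MBD2aR181C because no other line carries such a change.

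Here, filterByExpr by line removed low genes, TMM set the scaling, and edgeR 4.0.16 (R 4.3.3) gave quasi-likelihood F tests from 1 fit of all 24 libraries, with Benjamini-Hochberg adjustment over 16582 genes. The procedure was tested on simulated data. Standard errors are the size of the log2 fold change over the root of F. CPM used TMM-scaled library sizes, log2 CPM a prior count of 1, and RPKM the exon bases of GENCODE on mm9. With 3 libraries per line, an exact permutation test cannot go below a p of 0.1. Every pair of replicates differed beyond sampling noise. Promoters came from RefSeq on GRCm38.p6, where 6 of the 10 members matched, and mm9 coordinates were not converted. *Tbx2*, *Tbx3*, *Tbx5* and *Tbx15* did not match. The self-made gene lists and the members were chosen with earlier results of these data known. Named genes are all members, up to 4 of each list with the largest called change in *Mbd3* KO with mean log2 CPM not under 1, and the 3 nearest profiles of each called member, of which those of *Tbx15* are not reported here. Alternatives were RLE or no scaling, no filter, DESeq2 1.42.0, fits of only the 2 lines compared, no fold change threshold, leaving out each library and, added after the data were seen, a legacy quasi-likelihood test.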

Additional observations from a re-analysis of the deposited data

How the results depend on the processing

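For 39 changes of single members, 506 alternative values were computed: 505 kept their direction, 445 also their side of the threshold, 53 lost a call and 7 gained one. The exception in direction was *Tbx2* in *Mbd3* KO against WT, whose log2 fold change ran from -0.65 to 0.053 when 1 library was left out, the highest without s04. In *Mbd3* KO against WT, *Eomes*, *Tbx3* and *Tbx15* were called under all 13 alternatives, with log2 fold changes of 3.48 to 4.57, 1.66 to 2.26 and 1.12 to 1.51. The alternative without a fold change threshold uses the main fit, so in it no direction could turn and no call be lost. The counts of members called are given beside the share of all genes called at the same setting. That of MBD2aΔGR against WT was 1 with no filter on low counts (3.48%) and 0 in a fit of only the 2 lines (0.0848%), that of MBD2aΔGR against MBD2a was 0 in a fit of only the 2 lines (11%), and that of MBD2aΔGR against MBD2aR181C was 2 with DESeq2 (4.52%). Leaving out 1 library at a time, the counts against WT ran from 3 to 5 for *Mbd3* KO (30.5% to 34.8%), 5 to 6 for MBD2a (26% to 32.4%), 0 to 4 for MBD2aΔGR (0.722% to 11.4%) and 4 to 6 for MBD2t (30.2% to 34.7%). Against *Mbd3* KO they ran from 3 to 4 for MBD3a (29.8% to 32.2%), 0 to 2 for MBD2a (3.13% to 7.69%) and 2 to 3 for MBD2aΔGR (21.6% to 28.5%). Against MBD2a they ran from 1 to 3 for MBD2aΔGR (13.2% to 22.9%) and 3 to 7 for MBD2aR181C (21% to 31.3%), and for MBD2aΔGR against MBD2aR181C from 0 to 1 (0.251% to 8.27%). Scaling by library size alone moved the median log2 fold change of all genes by 0.14 in *Mbd3* KO, 0.15 in MBD2a and 0.16 in MBD2t against WT, by -0.14 in MBD3a and -0.13 in MBD2aΔGR against *Mbd3* KO, and by -0.14 in MBD2aΔGR and -0.15 in MBD2aR181C against MBD2a. In these 7 comparisons the members' values carry that shift under this setting, and the direction of no member turned except that of *Tbx4* in MBD3a against *Mbd3* KO, which was not called. The causes were not tested. No paired analysis was possible because the deposited columns carry no replicate number. Depth limits *Tbx5* in MBD2aΔGR and MBD2a, *Tbr1* and *Tbx20*, which rest on a few reads per library.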
